A study of Mus musculus with 18 samples.

Results

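Kdr, Etv2, Tal1, Lmo2, Cdh5, Pecam1, Runx1, Gata2 and Fli1 are 9 regulators and surface markers of the mesoderm that gives rise to blood and endothelium. They were selected by gene symbol, without reference to their measured values, from the 55487 genes of a mouse RNA sequencing count table, and all 9 were found. The study knocked out IκBα, the NF-κB inhibitor encoded by Nfkbia, with CRISPR-Cas9 guides against its first exon in the embryonic stem cell line ES-E14TG2a, which was established from a mouse blastocyst. Mouse embryonic stem cells (mESCs) were kept in Serum/LIF as the 0 hr stage, in which IκBα-WT clones, made with non-targeting guides, and IκBα-KO clones gave 3 libraries each. Embryoid bodies (EBs), which are aggregates grown in suspension after LIF withdrawal so that the cells enter the germ layers, gave 6 libraries at 48 hr and 6 at 96 hr.

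By the methods of the study, 3 clones of each genotype, grown from single sorted cells, were used at each stage. The EB libraries were named by the clone codes D4, E14, E2, E3, H7 and H9, each found at both stages. The labels state that 3 IκBα-WT and 3 IκBα-KO EB libraries exist at each stage, but no source used here pairs a code with a genotype, and none says whether the code E14, which also begins the name of the cell line, marks a clone of its own. EBs were therefore compared by stage only, over both genotypes together, and IκBα-WT was compared with IκBα-KO in mESCs only. At 48 hr Nfkbia was 7.31 CPM in E2, 7.89 in D4, 8.65 in E3, 10.7 in H9, 12.6 in E14 and 14.9 in H7. At 96 hr it was 4.97 CPM in D4, 7.01 in E2, 8.53 in E3, 14.5 in H7, 19.9 in E14 and 23.0 in H9. D4, E2 and E3 thus had the 3 lowest levels at both stages. These values were not used to assign a genotype to the EB libraries.

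Blood and endothelium arise side by side from mesoderm that carries KDR, a receptor for the growth factor VEGF. In this mesoderm the ETS factor ETV2 acts early and briefly, and TAL1, its partner LMO2, GATA2 and FLI1 then act together on shared target genes. RUNX1 is needed for the step from hemogenic endothelium to blood cells, while the junction proteins CDH5 and PECAM1 are carried by endothelium. PECAM1 is also a surface protein of undifferentiated mESCs. EBs pass through these steps in culture, with T, Mixl1 and Mesp1 marking the mesoderm that comes before them.

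The counts of a library summed to between 28287582 and 40904247 reads. Levels are given as CPM, the read count scaled to the depth of the library, after trimmed mean of M values (TMM) scaling, and levels of different genes are compared only as reads per kilobase of exon (RPKM, on the same scale). A gene was called changed at an adjusted p below 0.05 with a log2 fold change beyond 1 in either direction in edgeR's quasi-likelihood test. The pluripotency gene Pou5f1 was between 881 and 969.9 CPM in the 6 mESC libraries, and T was at most 0.407 CPM there. At 96 hr the E14 library lay outside the range of the other 5 in its mESC, endoderm and fibroblast markers, but not in its neuroectoderm markers. Its 8 mESC markers summed to 631 CPM against 1067 to 1611 CPM in the others. Its 6 endoderm markers summed to 271 CPM, against 113 CPM in H9, 61.5 CPM in H7 and 4.75 to 16.7 CPM in D4, E2 and E3. Its 6 fibroblast markers summed to 48.0 CPM against 14.7 to 32.0 CPM. Its 6 neuroectoderm markers summed to 178.9 CPM, within the 106.5 to 280.2 CPM of the others. The part of these differences in cell makeup in the results below was not tested, and the changes from 48 hr to 96 hr are given with and without the E14 library.

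The 250 bases before the annotated start of 4 members are shown because these genes stand for the receptor, the early ETS factor and the later blood factors, and because the data show them higher in the same EB library. They are RefSeq sequences on GRCm38.p6, written 5′ to 3′ on the strand of the gene, and 5 of the 9 members had an entry. Capitals mark the letters GATA, the core of GATA factor sites, and GGAA, the core of ETS factor sites, on either strand, so that TATC and TTCC are also in capitals and matches may overlap. The Etv2 window is chr7:30635853-30636102, the Kdr window is chr5:75978456-75978705, the Tal1 window is chr4:115056176-115056425 and the Runx1 window is chr16:92826075-92826324. For Tal1 and Runx1 the more upstream of 2 annotated starts is shown.
Etv2: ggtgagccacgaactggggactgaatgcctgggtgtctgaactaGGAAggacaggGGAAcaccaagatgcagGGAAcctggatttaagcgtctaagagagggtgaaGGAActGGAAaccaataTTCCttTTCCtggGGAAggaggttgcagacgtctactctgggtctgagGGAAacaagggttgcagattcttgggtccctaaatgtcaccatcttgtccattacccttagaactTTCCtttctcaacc
Kdr: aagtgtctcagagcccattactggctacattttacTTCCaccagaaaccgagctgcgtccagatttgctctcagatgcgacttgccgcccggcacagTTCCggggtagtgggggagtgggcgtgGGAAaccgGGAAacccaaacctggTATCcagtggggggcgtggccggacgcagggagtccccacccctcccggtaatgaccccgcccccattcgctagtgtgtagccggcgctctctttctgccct
Tal1: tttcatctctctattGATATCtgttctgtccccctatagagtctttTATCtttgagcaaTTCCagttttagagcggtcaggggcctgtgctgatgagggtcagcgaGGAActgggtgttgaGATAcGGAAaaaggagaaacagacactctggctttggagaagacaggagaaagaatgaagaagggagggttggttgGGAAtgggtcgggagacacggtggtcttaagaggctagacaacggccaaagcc
Runx1: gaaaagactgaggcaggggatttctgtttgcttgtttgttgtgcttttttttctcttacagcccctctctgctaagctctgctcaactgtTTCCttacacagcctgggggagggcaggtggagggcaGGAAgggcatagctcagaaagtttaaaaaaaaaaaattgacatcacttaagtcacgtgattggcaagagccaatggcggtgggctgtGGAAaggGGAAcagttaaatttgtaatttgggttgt
GGAA occurred 10 times in the Etv2 window, 4 times in the Kdr window, 4 times in the Tal1 window and 4 times in the Runx1 window, against a median of 3 over 32851 promoter windows of the same length, of which 93.4% held it. GATA occurred 4 times in the Tal1 window, 1 time in the Kdr window and not at all in the Etv2 and Runx1 windows, and 53.6% of all windows held it. In the windows not shown, the second Tal1 window held 3 GGAA and no GATA, the 2 Gata2 windows held 3 and 1 GGAA and no GATA, and the second Runx1 window held 6 GGAA and 1 GATA. The letters CANNTG, the form bound by TAL1 with its partners, occurred 3 times in the Runx1 window and 1 time in the Kdr window. The Etv2 and Tal1 windows and all windows not shown held none, while 66.2% of all promoter windows held them. These are matches of letters and do not show binding.

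In mESCs, 8 of the 9 members were transcribed at low levels and Pecam1 stood above them. The median over the 6 mESC libraries was 11.3 RPKM for Pecam1, 1.24 RPKM for Etv2, 0.311 RPKM for Gata2, 0.294 RPKM for Lmo2 and 0.266 RPKM for Tal1. It was 0.174 RPKM for Cdh5, 0.170 RPKM for Kdr, 0.0807 RPKM for Runx1 and 0.00474 RPKM for Fli1. Fli1 had 0 to 2 counts in each of the 6 libraries, which is at or below a floor of 3 counts per library.

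To ask whether loss of IκBα moved these genes before differentiation, IκBα-KO and IκBα-WT mESCs were compared. Nfkbia itself was at 34.2, 35.1 and 25.3 CPM in the 3 WT libraries and at 10.2, 9.44 and 10.1 CPM in the 3 KO libraries, a fall with a log2 fold change of -1.67 ± 0.14 (SE; edgeR adjusted p = 0.00489). None of the 8 members that passed the filter on low counts was called, while 1.06% of all 21843 genes tested were called higher and 0.641% lower. Of these 8 members, 2 had an unadjusted edgeR p below 0.05, as did 4713 of all 21843 genes tested. DESeq2 called 1 member, which was Cdh5. Fli1 did not pass the filter.

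Cdh5, which encodes the endothelial adhesion protein VE-cadherin, had the largest difference of the 8. It was at 0.475, 0.361 and 0.627 CPM in the WT libraries and at 2.32, 0.834 and 2.18 CPM in the KO libraries. The log2 fold change was 1.86 ± 0.44 (SE), with an edgeR adjusted p of 0.0529. It was called without a filter on low counts (adjusted p = 0.0136), with KO replicate 2 left out (log2 fold change 2.20, adjusted p = 0.000159) and with DESeq2 (adjusted p = 0.00358). The fit without KO replicate 2 called 872 genes in place of 372. It was the only 1 of the 6 fits with 1 mESC library left out that called Cdh5. The highest edgeR adjusted p among those fits was 0.223. Genes of chromosome 8, which carries Cdh5 at chr8:104101625-104144511, had a median log2 difference from the WT mean of 0.47, 0.28 and 0.43 in KO replicates 1, 2 and 3. Cdh5 itself lay 2.15, 0.74 and 2.06 above the WT mean in the same libraries on the log2 scale. With the chromosome median taken out of each library the log2 fold change of Cdh5 was 1.44 (edgeR adjusted p = 0.0853).

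Runx1 was at 0.542, 1.08 and 0.858 CPM in the WT libraries and at 2.41, 0.539 and 3.11 CPM in the KO libraries. KO replicate 2 lay below all 3 WT libraries and the other KO libraries lay above them, so the groups overlapped (log2 fold change 1.28 ± 0.58 SE, edgeR adjusted p = 0.248). Without KO replicate 2 Runx1 was called, at a log2 fold change of 1.74 (adjusted p = 0.00091). Pecam1 was at 67.9, 64.3 and 60.5 CPM in the WT libraries and at 73.9, 116 and 72.3 CPM in the KO libraries. Its log2 fold change was 0.44 ± 0.17 (SE; edgeR adjusted p = 0.174).

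The other 5 members tested in mESCs had smaller differences than Cdh5 and Runx1. Kdr was 1.70 ± 0.41 CPM (SD, n = 3) in WT and 1.46 ± 0.343 CPM in KO libraries, and Etv2 was 1.40 ± 0.131 CPM in WT and 1.05 ± 0.258 CPM in KO libraries. Tal1 was 1.297 ± 0.223 CPM in WT and 0.966 ± 0.283 CPM in KO libraries. Lmo2 was 0.610 ± 0.0614 CPM in WT and 0.801 ± 0.300 CPM in KO libraries, and Gata2 was 1.53 ± 0.169 CPM in WT and 2.16 ± 0.797 CPM in KO libraries. The log2 fold changes of these 5 genes lay between -0.43 and 0.50, and their edgeR adjusted p lay between 0.363 and 0.706. Of the wider lists in mESCs, Vegfc of 8 VEGF ligands and receptors and Robo4 of 13 endothelial surface and junction genes tested were called higher. Lef1 and Wnt3 of 13 upstream mesoderm genes were called lower, and none of 22 further transcription factors or of 6 blood cell genes was called. Over all 21843 genes, 1.06% were called higher and 0.641% lower.

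**Figure D1:**
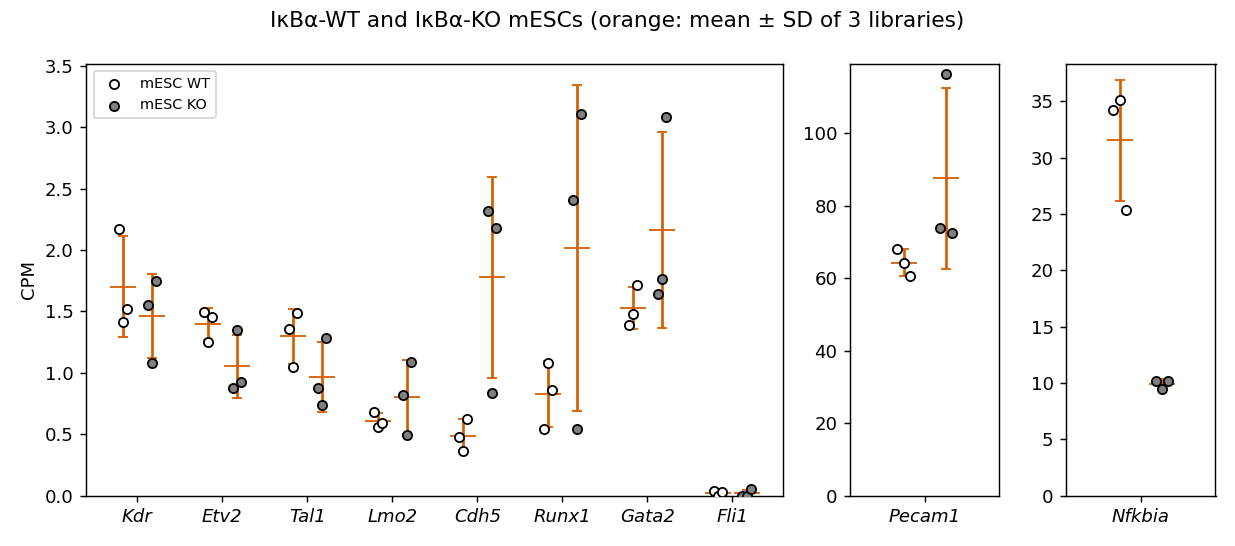
CPM of the 9 members and of Nfkbia in 3 IκBα-WT (white) and 3 IκBα-KO (grey) mESC libraries, with the mean ± SD in orange and a separate axis for Pecam1 and Nfkbia. The KO range overlaps the WT range for every member except Cdh5 and Pecam1, and all Nfkbia KO points lie near 10 CPM against 25.3 to 35.1 CPM in WT.

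Between mESCs and 48 hr EBs, none of the 9 members was called in the fit over all 18 libraries, in which 4.62% of 25318 genes were called higher and 4.95% lower. DESeq2 also called none, but it gave no adjusted p for Tal1, Runx1 and Gata2. In edgeR 1 member, Etv2, had an unadjusted p below 0.05. Etv2 ranged from 0.880 to 1.49 CPM (median 1.298) in mESCs and from 1.49 to 3.83 CPM (median 2.45) at 48 hr, and the 2 ranges met only at their ends. Its log2 fold change was 1.04 ± 0.49 (SE; edgeR adjusted p = 0.125). Lmo2 ranged from 0.490 to 1.09 CPM (median 0.636) in mESCs and from 0.760 to 2.04 CPM (median 1.44) at 48 hr, with a log2 fold change of 1.04 ± 0.73 (SE; edgeR adjusted p = 0.325). When the fit held only the 12 libraries of these stages, Etv2 (adjusted p = 0.00382) and Lmo2 (adjusted p = 0.00946) were both called. The spread of that fit was estimated without the 96 hr libraries. Of the wider lists, 2 of 22 further transcription factors of this program (Mef2c and Myb) and 1 of 14 upstream mesoderm genes (Lef1) were called higher at 48 hr, and 1 of 8 VEGF ligands and receptors (Vegfa) and 1 of 15 endothelial surface and junction genes (Vwf) lower, with none of 13 blood cell genes called.

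Of the other members, all but Pecam1 were low at 48 hr. Kdr had a median of 1.02 CPM (0.376 to 2.09), Tal1 of 1.96 CPM (0.982 to 3.04), Gata2 of 2.35 CPM (1.88 to 3.23) and Runx1 of 0.619 CPM (0.127 to 0.910). Cdh5 had a median of 0.290 CPM (0.0370 to 1.04) at 48 hr against 0.731 CPM in mESCs, with a log2 fold change of -1.501 ± 1.03 (SE; edgeR adjusted p = 0.308). It was -0.30 against the WT mESCs alone (adjusted p = 0.908) and -2.15 against the KO mESCs alone (adjusted p = 0.24). Fli1 had 0 counts in D4, E2 and E3, 1 count in H9, 2 counts in H7 and 14 counts in E14. Pecam1 ranged from 39.0 to 115 CPM (median 84.8), and E14 was the lowest of the 6 libraries.

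From 48 hr to 96 hr, 8 of the 9 members were called higher in the fit over all 18 libraries, where 7.1% of all genes were called higher and 4.76% lower. The median log2 fold change of the 9 members was 2.95, against -0.03 over all 25318 genes, and it was 1.32 without E14 at 96 hr and 1.60 in the paired fit described below. The E14 library had the highest level of all 8 of these genes at 96 hr, and H9 was second for 6 of them. Without E14 at 96 hr, 2 of the 9 members, Kdr and Etv2, were called higher, while 5.4% of 25053 genes were called higher and 3.01% lower. With E14 left out at both stages 3 members, Kdr, Etv2 and Fli1, were called higher, while 6.34% of 24921 genes were called higher and 4.42% lower. In a paired fit of the 12 EB libraries with the clone code as a block, 2 members, Etv2 and Fli1, were called higher and Pecam1 was called lower, while 7.88% of 23836 genes were called higher and 6.95% lower. In these bulk libraries a larger share of cells that transcribe a gene and more RNA per cell cannot be told apart.

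Kdr, the VEGF receptor that marks this mesoderm (chr5:75932827-75978458), had the largest fitted change of the 9 members over all 18 libraries, although not in the paired fit, without E14 at 48 hr or without both E14 libraries, where Fli1 had a larger one. At 96 hr it was at 315 CPM in E14, 24.7 CPM in H9, 6.79 CPM in H7, 2.83 CPM in D4, 2.55 CPM in E2 and 0.420 CPM in E3. E14 was 12.8 times the next library and held 89.4% of the CPM summed over the 6 libraries. Against 48 hr, Kdr was 151 times higher in E14, 33.3 times higher in H9, 18.1 times higher in H7 and 2.87 times higher in D4, and E3 was the 1 code in which it was lower. The log2 fold change was 5.59 ± 1.24 (SE; edgeR adjusted p = 0.00336), and 2.62 ± 0.69 without E14 at 96 hr (adjusted p = 0.0124). With the clone code as a block it was 3.09 ± 1.24 (SE) and was not called (adjusted p = 0.0889).

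Etv2, the ETS factor that starts the program (chr7:30633616-30635852), was called in all 3 of these fits. It was at 29.4 CPM in E14, 14.4 CPM in H9, 8.82 CPM in H7, 6.62 CPM in D4, 4.91 CPM in E2 and 1.23 CPM in E3 at 96 hr. Of the 6 libraries, 5 were above the highest 48 hr library, which was E14 at 3.83 CPM. E14 held 45.0% of the summed CPM and was 2.05 times the next library. Etv2 rose with a log2 fold change of 2.11 ± 0.49 (SE; edgeR adjusted p = 0.00442), of 1.53 ± 0.40 without E14 at 96 hr (adjusted p = 0.0111) and of 1.68 ± 0.42 in the paired fit (adjusted p = 0.0152). It was called in all 12 fits that left out 1 library.

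Tal1 and Lmo2 encode a basic helix-loop-helix factor and the bridging protein that joins it to GATA factors. Tal1 (chr4:115056426-115071755) was at 75.8 CPM in E14 at 96 hr, followed by H9 at 5.18 CPM, E2 at 3.71 CPM, D4 at 3.61 CPM, H7 at 2.19 CPM and E3 at 0.420 CPM. Lmo2 (chr2:103957986-103981878) was at 40.3 CPM in E14, 8.06 CPM in H9, 4.98 CPM in H7, 2.41 CPM in E2, 2.08 CPM in D4 and 0.394 CPM in E3. Both genes were higher at 96 hr than at 48 hr in 5 of 6 clone codes, with E3 as the exception. The log2 fold change of Tal1 was 2.95 ± 0.86 (SE; edgeR adjusted p = 0.0173) and was 0.65 without E14 at 96 hr (adjusted p = 0.274). That of Lmo2 was 2.74 ± 0.73 (adjusted p = 0.0108) and was 1.32 without that library (adjusted p = 0.0557). In the paired fit neither was called, at 1.21 for Tal1 (adjusted p = 0.221) and 1.60 for Lmo2 (adjusted p = 0.0812).

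Fli1 and Gata2 encode an ETS factor and a zinc finger factor that share targets with TAL1. Fli1 (chr9:32422204-32542861) had 489 counts in E14 at 96 hr, 32 in H9, 17 in H7, 10 in D4, 2 in E2 and 1 in E3. It was the only member whose CPM was higher at 96 hr in all 6 clone codes, although E2 and E3 remained below the floor of 3 counts at both stages. Its fitted log2 fold change was 4.63 ± 1.31 (SE; edgeR adjusted p = 0.0143), and with 0 to 14 counts per library at 48 hr this value depends on the prior count. It was 1.93 without E14 at 96 hr (adjusted p = 0.154), 4.45 in the paired fit (adjusted p = 0.00014) and 3.98 in the paired fit without both E14 libraries (adjusted p = 0.00111). E14 held most of the 48 hr counts, and without both E14 libraries and without a block the log2 fold change was 3.97 (adjusted p = 0.00956). Gata2 (chr6:88193891-88207032) was at 48.3 CPM in E14 and between 0.920 CPM in H7 and 4.57 CPM in E3 in the other libraries. Its 5 other 96 hr libraries overlapped the 48 hr range of 1.88 to 3.23 CPM. The log2 fold change of Gata2 was 2.07 ± 0.71 (SE; edgeR adjusted p = 0.0374), 0.21 without E14 at 96 hr (adjusted p = 0.67) and 0.66 in the paired fit (adjusted p = 0.481). Leaving out any 1 of the 6 libraries of 48 hr EBs also ended the call of Gata2, with log2 fold changes between 2.04 and 2.17 and adjusted p between 0.0526 and 0.068.

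Runx1, the factor required for blood to emerge from endothelium (chr16:92601466-92826149), was at 25.7 CPM in E14 at 96 hr and at most 1.65 CPM, in H9, in the other 5 libraries. Its exons overlap those of Gm26626 by 106 bases, and how reads there were assigned is not given in the sources used here. It was lower at 96 hr than at 48 hr in D4 and E2 and higher in the other 4 codes. The log2 fold change was 3.07 ± 0.97 (SE; edgeR adjusted p = 0.0251), 0.56 without E14 at 96 hr (adjusted p = 0.491), 2.86 without E3 at 48 hr (adjusted p = 0.0512) and 1.43 in the paired fit (adjusted p = 0.157).

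The junction genes Cdh5 and Pecam1 went different ways. Cdh5 was at 33.5 CPM in E14 at 96 hr, and E3, which was lowest for 6 of the 8 members other than Pecam1, was second at 3.49 CPM. H9 had 1.71 CPM, E2 had 0.943 CPM, H7 had 0.508 CPM and D4 had 0.434 CPM. The log2 fold change of Cdh5 was 4.07 ± 1.08 (SE; edgeR adjusted p = 0.0101), 1.86 without E14 at 96 hr (adjusted p = 0.0769) and 2.67 in the paired fit (adjusted p = 0.0903). Chromosome 8 genes lay at a median of 0.27 above the stage median in D4 and in E2 and 0.11 above it in E3 at 96 hr on the log2 scale. They lay at -0.15 in E14, -0.14 in H7 and -0.13 in H9. Pecam1 (chr11:106654217-106750628) was lower at 96 hr than at 48 hr in all 6 clone codes. It was at 78.7 CPM in E3, 68.4 CPM in D4 and 54.4 CPM in E2, and at 15.9 CPM in E14, 12.8 CPM in H7 and 9.94 CPM in H9. The libraries with the least Pecam1 at 96 hr were E14, H7 and H9, in which Kdr, Etv2 and Lmo2 were highest. Its log2 fold change was -1.05 ± 0.44 (SE; edgeR adjusted p = 0.0808) and was not called, nor was it without E14 at 96 hr (-0.84, adjusted p = 0.19). The paired fit called it at -1.36 ± 0.35 (adjusted p = 0.0198), and without both E14 libraries the paired fit gave -1.38 (adjusted p = 0.0517). Pecam1 was also called without E3 at 96 hr (-1.36, adjusted p = 0.025), without D4 at 96 hr (-1.27, adjusted p = 0.0461) and with DESeq2 (-1.04, adjusted p = 0.0486).

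**Figure D2:**
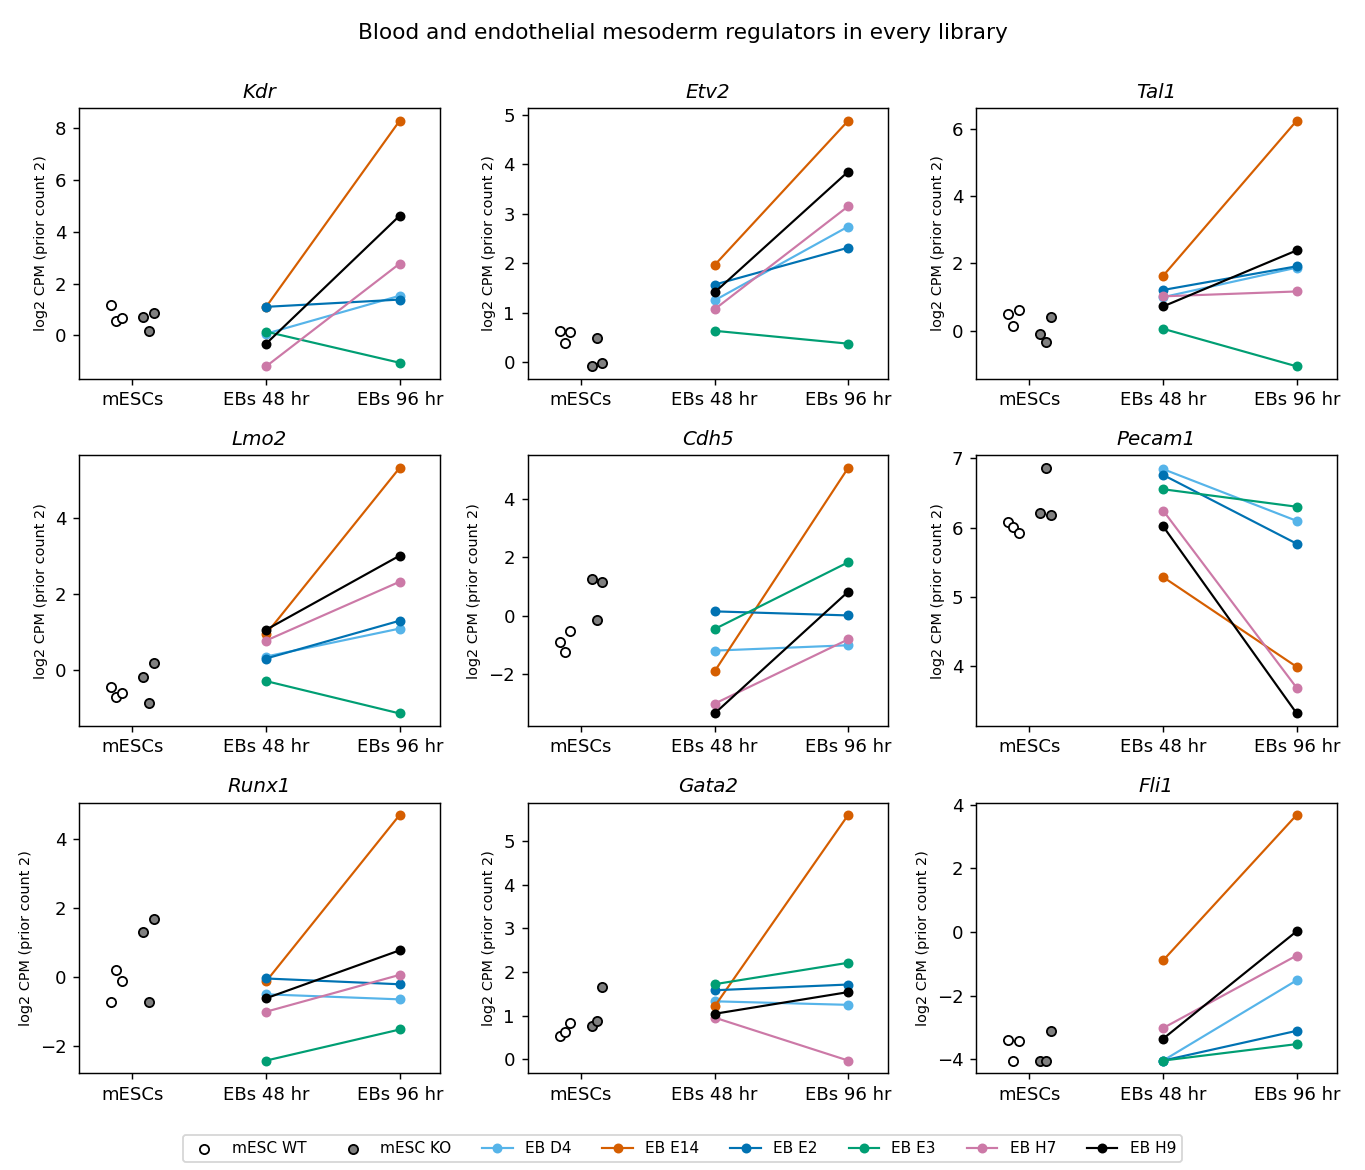
Level of each member on the log2 CPM scale (prior count 2) in IκBα-WT (white) and IκBα-KO (grey) mESC libraries and in the 6 EB libraries at 48 hr and 96 hr, with lines joining the same clone code. The line of E14 ends highest at 96 hr in every panel except Pecam1, where all 6 lines fall.

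**Figure D3:**
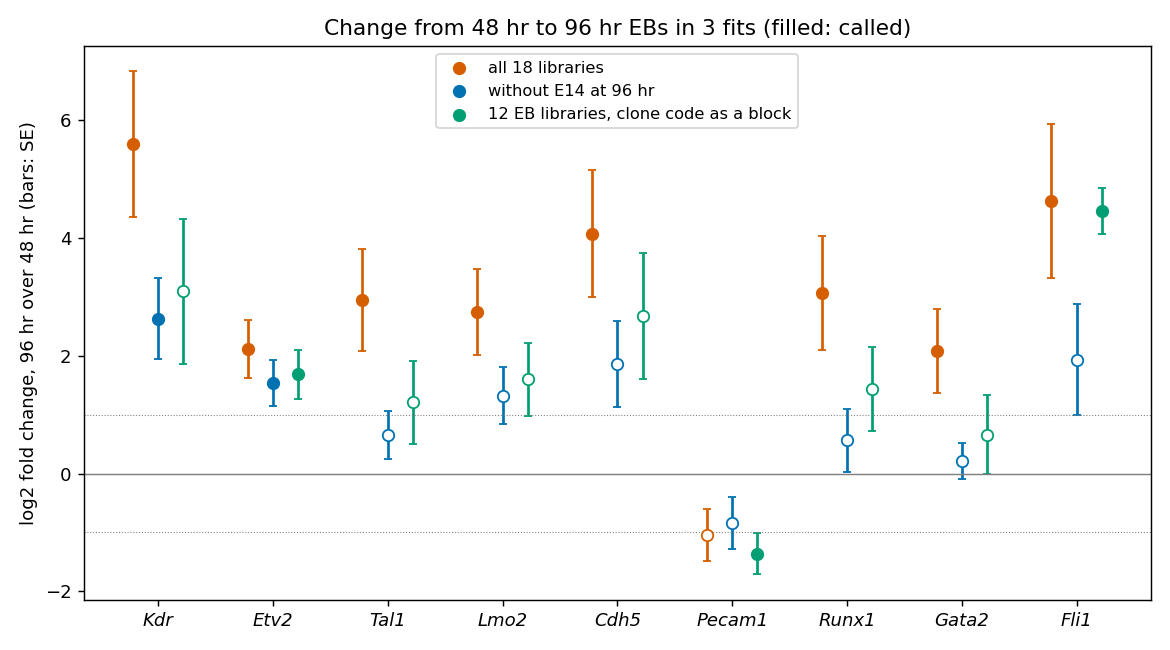
Log2 fold change from 48 hr to 96 hr EBs for the 9 members, with SE, in the fit of all 18 libraries (orange), without the E14 library of 96 hr (blue) and in the 12 EB libraries with the clone code as a block (green). Filled points were called: 8 of 9 in orange, Kdr and Etv2 in blue, and Etv2, Fli1 and Pecam1 in green.

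Per length, the order of the members in the E14 library at 96 hr was Kdr at 34.9 RPKM, Etv2 at 28.04 RPKM, Lmo2 at 18.6 RPKM, Tal1 at 17.3 RPKM, Gata2 at 8.94 RPKM, Cdh5 at 7.96 RPKM, Fli1 at 3.68 RPKM, Pecam1 at 2.55 RPKM and Runx1 at 2.14 RPKM. The median over all 6 libraries at 96 hr gave another order, with Etv2 at 7.37 RPKM, Pecam1 at 5.64 RPKM and Lmo2 at 1.71 RPKM ahead of Tal1 at 0.837 RPKM, Gata2 at 0.561 RPKM and Kdr at 0.533 RPKM. Cdh5 at 0.315 RPKM, Fli1 at 0.119 RPKM and Runx1 at 0.0743 RPKM had the lowest medians. Kdr thus led in E14 and was sixth by the median. Over the other 5 libraries the median was highest for Pecam1, at 8.73 RPKM, followed by Etv2 at 6.32 RPKM, Lmo2 at 1.11 RPKM, Tal1 at 0.825 RPKM, Gata2 at 0.527 RPKM and Kdr at 0.314 RPKM.

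The comparison of 96 hr EBs with mESCs shares its 96 hr libraries with the one above. Against mESCs, 7 of the 9 members were called higher at 96 hr, where 11.2% of all genes were called higher and 9.65% lower. The log2 fold changes were 6.70 for Fli1, which rests on 0 to 2 counts per mESC library, 5.22 for Kdr, 3.77 for Lmo2, 3.74 for Tal1, 3.15 for Etv2, 2.57 for Cdh5 and 2.49 for Gata2. Without E14 at 96 hr, 5 members were called higher, with 10.1% of 25053 genes called higher and 8.19% lower. These were Etv2 at 2.56, Lmo2 at 2.35, Kdr at 2.24, Tal1 at 1.43 and Fli1 at 3.99, while Gata2 was at 0.62 (adjusted p = 0.126) and Cdh5 at 0.36 (adjusted p = 0.719). Runx1 had a log2 fold change of 1.81 ± 0.90 (SE; edgeR adjusted p = 0.116) with E14 and of -0.71 (adjusted p = 0.299) without it. The call of Cdh5 (adjusted p = 0.0425) was also lost without WT replicate 1, 2 or 3 or KO replicate 2 of the mESCs, with adjusted p between 0.0751 and 0.0804.

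Some of the genes that come before these members in the mesoderm, such as T and Mixl1, were high in H7 and H9 as well as in E14, and others, such as Hand1, in E14 alone. Of 14 upstream mesoderm genes, 10 were called higher at 96 hr than at 48 hr, 7 without E14 at 96 hr and 6 in the paired fit. Over all genes these fits called 7.1%, 5.4% and 7.88% higher. The 14 genes summed to 1215 CPM in E14, 1184 CPM in H9 and 866 CPM in H7 at 96 hr, and to 171 to 184 CPM in D4, E2 and E3. T, which encodes Brachyury, was at 354 CPM in E14, 510 CPM in H9 and 268 CPM in H7, and at 0.708 to 1.45 CPM in the other 3 libraries. H9 thus had more T than E14, while its Kdr was the lower by 12.8 times. Mixl1, a mesendoderm factor, was at 126 CPM in E14, 140 CPM in H9 and 70.0 CPM in H7, and at 1.21 to 1.5 CPM elsewhere. Mesp1, a factor of early cardiovascular mesoderm, was at 24.7 CPM in E14, 8.89 CPM in H9 and 1.05 CPM in H7, and Hand1, a factor of lateral and extraembryonic mesoderm, was at 87.1 CPM in E14 and at most 2.28 CPM elsewhere.

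Of 8 VEGF ligands and receptors other than Kdr, 6 were called higher from 48 hr to 96 hr, 4 without E14 at 96 hr and 5 in the paired fit. The shares of all genes called higher in these fits were 7.1%, 5.4% and 7.88%. Flt1, a VEGF receptor that also acts as a decoy, was at 99.9 CPM in E14, 57.6 CPM in H9 and 44.0 CPM in H7, and at 2.36 to 7.93 CPM in the other 3 libraries. Flt1 remained called without E14 at 96 hr (log2 fold change 2.99, edgeR adjusted p = 0.0062). The ligand gene Vegfa was at 49.7 CPM in E14 and 23.3 to 39.5 CPM elsewhere, and Flt4, a receptor for VEGF-C, was at 25.7 CPM in E14 and 6.22 to 18.6 CPM elsewhere. The co-receptor gene Nrp1 was at 89.5 CPM in E14 and at most 3.41 CPM in the others, and was not called without E14 (1.00, adjusted p = 0.217).

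Of the 16 genes called higher in the other blood and endothelial lists, 5 were still called without E14 at 96 hr. Of 22 further transcription factors of this program, 9 were called higher at 96 hr, 2 without E14 at 96 hr (Ets1 and Sox18) and 4 in the paired fit. Over all genes these fits called 7.1%, 5.4% and 7.88% higher and 4.76%, 3.01% and 6.95% lower. Without E14 at 96 hr the median log2 fold change was 0.291 for the factors, -0.385 for endothelial genes and -0.434 for blood cell genes. With E14 these medians were 1.478, 0.064 and 0.351. Summed over the whole list at 96 hr, the factors were at 825.8 CPM in E14 and at most 617 CPM elsewhere. Endothelial genes summed to 181.5 CPM in E14 and at most 166.9 CPM elsewhere, and blood cell genes to 108.6 CPM against at most 82.9 CPM. The genes named below were picked for the size of their change in the fit with E14, which favours genes high in that library. Sox17, a factor of arterial endothelium and endoderm, was at 38.2 CPM in E14 and at most 7.995 CPM elsewhere. Gfi1b and Gfi1, which encode transcriptional repressors that act during early blood formation, were at 6.74 and 2.04 CPM in E14 and at most 0.270 and 0.127 CPM elsewhere. Erg, an ETS factor of endothelium, was at 9.02 CPM in E14 and at most 0.749 CPM elsewhere. Of 16 endothelial surface and junction genes 15 passed the filter, Emcn being the exception, and 3 were called higher with E14, 3 higher and 1 lower without it, and 2 higher and 1 lower in the paired fit. Tie1 was at 20.6 CPM in E14 and at most 1.13 CPM elsewhere, Ramp2 at 20.6 CPM against at most 7.31 CPM, and Cd93 at 5.40 CPM against at most 0.329 CPM. Of 13 blood cell genes 4 were called higher, 1 of 11 tested without E14 at 96 hr, and 3 higher and 1 lower in the paired fit. The embryonic globin gene Hbb-bh1 was at 8.76 CPM in E14 and at most 0.0299 CPM, which is 1 count, in the others. Alas2, a heme synthesis gene of red cells, was at 2.7 CPM in E14 and at most 0.0299 CPM in the others, while Itga2b was at 14.1 CPM against at most 2.40 CPM and the erythropoietin receptor gene Epor at 10.4 CPM against at most 4.25 CPM.

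**Figure D4:**
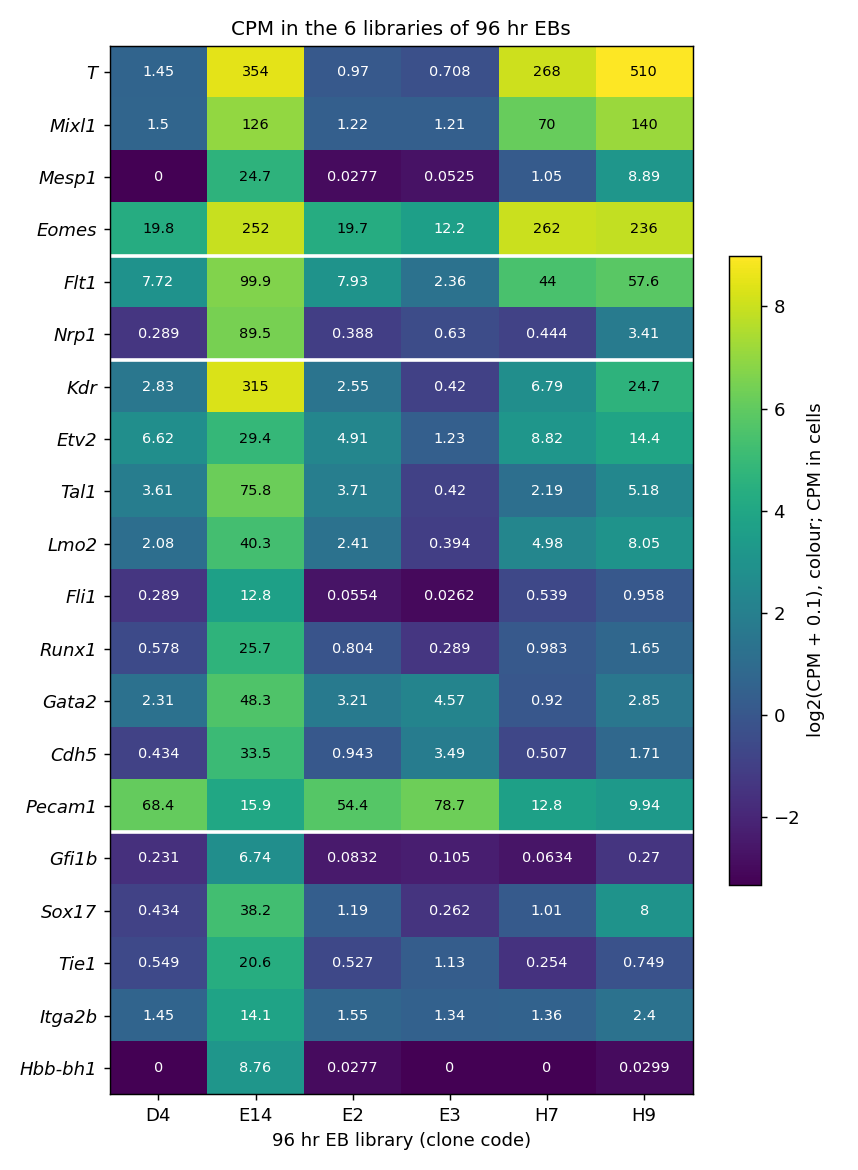
CPM, printed in each cell, of the members and of 11 genes from the mesoderm, VEGF receptor, blood and endothelial lists in the 6 libraries of 96 hr EBs, with colour on a log2(CPM + 0.1) scale. T, Mixl1, Eomes and Flt1 are high in E14, H7 and H9, the members other than Pecam1 and the blood and endothelial genes shown are highest in E14, and Pecam1 is highest in E3, D4 and E2. The blood and endothelial genes shown were among those called higher in the fit that held E14.

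Over the 18 libraries the levels of the members were compared with each other, given here as Pearson correlations of log2 CPM that share the libraries, their depth and the E14 library. Etv2 and Lmo2 were the closest pair at 0.93, followed by Tal1 and Lmo2 at 0.93 and Fli1 and Lmo2 at 0.92. Among the members other than Pecam1, Cdh5 and Etv2 were the least alike, at 0.33. Pecam1 had negative correlations with all 8 others, from -0.83 with Fli1 to -0.27 with Gata2. Without E14 at 96 hr, over 17 libraries, Etv2 and Lmo2 were at 0.90, Tal1 and Lmo2 at 0.84 and Fli1 and Lmo2 at 0.82. The correlations of Gata2 with Kdr, Etv2, Tal1, Lmo2, Runx1 and Fli1 then lay between -0.21 and -0.02, against 0.52 to 0.73 with that library, and Cdh5 and Etv2 were at -0.15. That of Pecam1 with Gata2 turned to 0.27. Among genes that averaged 50 counts or more, those most like each member were Rin3 (0.95), Unc5c (0.94) and Nedd9 (0.93) for Kdr, and Nkiras2 (0.95), Slc25a51 (0.95) and Sema3f (0.95) for Etv2. They were Slc16a1 (0.96), F2r (0.90) and Gna12 (0.90) for Tal1, and Gfra2 (0.95), Gna12 (0.94) and Slc16a1 (0.94) for Lmo2. Asb4 (0.95), Crb2 (0.94) and Cpd (0.94) were the most like Fli1, Emilin1 (0.93), Adgra2 (0.92) and Fn1 (0.91) the most like Gata2, and Flrt3 (0.94), Fgf3 (0.92) and Sox17 (0.90) the most like Runx1. Col5a1 (0.93), C2cd2 (0.91) and Peg10 (0.90) were the most like Cdh5, and Megf11 (0.98), Gm7896 (0.98) and Ddhd2 (0.97) the most like Pecam1. Without E14 at 96 hr the correlations of these genes with their member were between 0.69 and 0.78 for Gata2, 0.73 and 0.85 for Tal1, 0.79 and 0.87 for Runx1, 0.83 and 0.86 for Kdr, 0.85 and 0.88 for Cdh5, 0.87 and 0.89 for Fli1, 0.88 and 0.91 for Lmo2, 0.92 and 0.93 for Etv2, and 0.97 and 0.98 for Pecam1.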

How the data were processed

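RNA from 18 libraries was sequenced as paired 125 base reads. The authors trimmed reads with Trim Galore 0.6.6, aligned them with STAR 2.7.8 to GRCm38, kept uniquely mapped reads and counted them on exons with featureCounts (Subread 2.0.1). They deposited whole-number counts for 55487 genes, which were used here. Deposited log2 normalized values were not used. Symbols, coordinates and exon lengths came from GENCODE M21 on GRCm38. A gene was tested where the libraries of a fit held 10 or more of its counts in sum, with edgeR 4.0.16 (TMM factors, robust quasi-likelihood test, Benjamini-Hochberg adjustment) in R 4.3.3, and DESeq2 1.42.0 was an alternative. The SE was derived from the log2 fold change and its F statistic. mESCs were fitted on 6 libraries and stages on 18. On simulated counts with 200 changed genes at a log2 fold of 2, 92.5% were recovered for KO versus WT mESCs (21366 genes) and 90.0% for 96 hr versus 48 hr EBs (24850 genes). In each simulation 6 unchanged genes were called. The changed genes were drawn above a minimum mean count and shifted alike in every library of a group. These rates therefore do not cover genes with few counts or a change held mostly by a single library.

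EB libraries were grouped by the stage in their names and never by measured values. Libraries of the same clone code deviated together, with correlations of 0.40 to 0.73 between stages, so the code was used as a block for pairing. E14 was the 1 code of 6 that did not correlate best with itself. Named genes were Nfkbia, the 9 members, at most 4 called genes of each list by size of the 96 hr change plus list members that did not pass the filter, and the 3 genes most correlated with each member. Other genes (Pou5f1, and those named for 1 count of calls) were named after their values were seen. The members, lists and tests were chosen with earlier results of these data known. The pairs of libraries of a group differed by at least 5.47 in chi-square per degree of freedom, so none was a copy of another.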

Additional observations from a re-analysis of the deposited data

Results flagged for a closer look

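Among 20 groups of 6 libraries (10 genes at 2 stages), 8 held a library whose gap to its nearest neighbour was a larger share of the range than Dixon's 95% critical value for 6 values. That value assumes normally spread data, while it was applied to CPM. The 20 groups share their libraries and are not independent, so no chance rate is given. All 8 were the E14 library on the high side. At 96 hr the gap was 0.923 of the range for Kdr, 0.937 for Tal1, 0.808 for Lmo2, 0.907 for Cdh5, 0.947 for Runx1, 0.923 for Gata2 and 0.927 for Fli1. At 48 hr it was 0.869 for Fli1, where E14 had 14 counts and the other 5 libraries had 0 to 2. Etv2, Pecam1 and Nfkbia had no such library at either stage.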

How the results depend on the processing

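The calls over all genes depended on the fold threshold: without it 1046 in place of 372 genes passed for KO versus WT mESCs, 7053 in place of 2422 for 48 hr EBs versus mESCs, 7019 in place of 3003 for 96 hr versus 48 hr and 10894 in place of 5278 for 96 hr EBs versus mESCs. DESeq2 called 570 genes for KO versus WT mESCs, and leaving out 1 mESC library gave 0 to 872 genes there. The count of 0, without WT replicate 2, went with 3104 genes at an unadjusted edgeR p below 0.05 and 381 calls by DESeq2. It was 174 without WT replicate 1, 25 without WT replicate 3, 198 without KO replicate 1, 872 without KO replicate 2 and 114 without KO replicate 3. With IκBα-WT as the only mESC group, 1520 genes were called for 48 hr EBs versus mESCs. mESC replicate numbers did not pair the libraries (correlations of -0.12, -0.01 and -0.03), and with the replicate number as a block 261 genes were called, with Cdh5 called at a log2 fold change of 1.79 (adjusted p = 0.0346). With the clone code as a block 3535 genes were called for 96 hr versus 48 hr.

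Among the members, Runx1 in 96 hr EBs versus mESCs turned to -0.73 without both E14 libraries and ranged from -0.71 to 2.20 with 1 library left out. Pecam1 in 48 hr EBs versus mESCs, 0.12 and not called, turned to -0.092 with IκBα-KO as the only mESC group and ranged from -0.005 to 0.29 with 1 library left out. From 48 hr to 96 hr the fit of the 12 EB libraries without a block called 5 members higher, among 2270 genes called in all. DESeq2 called 5 members higher and 1 lower there, among 3110 genes called in all. DESeq2 gave no adjusted p for 10 member values. These were Tal1, Runx1 and Gata2 in every stage comparison and Fli1 in mESCs. Of 632 member values under an alternative, 568 kept their direction and call. Both fits that left out E14 entirely, and the offset over windows of chromosomes, were chosen after the data were seen. Genes under the floor of 3 counts limit what can be said of Fli1 before 96 hr.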
